A study of Mus musculus with 29 samples.

Results

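The leukocyte chemokine receptor genes Ccr1, Ccr2, Ccr7, Cxcr3, Cxcr4 and Cxcr6 were followed in bulk RNA of mouse brain with and without stroke. They are 6 of the 25746 genes in the count files and were chosen by symbol, through their Ensembl identifiers. Poly(A) RNA of 29 samples was counted, 18 from stroked tissue taken 21 days after a photothrombotic stroke of the sensorimotor cortex and 11 from non-stroked tissue. The non-stroked groups were wildtype C57BL/6J mice (WT_Ctrl, n = 4), Rag2-/- mice (RAG_Ctrl, n = 3) and NSG mice (NSG_Ctrl, n = 4). The stroked groups were WT_Stroke (n = 4), WT_IM_Stroke (n = 3, wildtype mice on tacrolimus from the time of stroke), WT_IM_del_Stroke (n = 5, wildtype mice with a delayed start of tacrolimus), RAG_Stroke (n = 3) and NSG_Stroke (n = 3). Tacrolimus was delivered by osmotic pump, and all mice were adults of both sexes. Rag2-/- mice form no mature T or B cells but keep NK and myeloid cells, while NSG mice also lack NK cells and have impaired myeloid function. NSG mice have the NOD background, so that in a comparison of NSG with WT the immune defect and the strain cannot be told apart, and no tacrolimus group without stroke was included here. The methods of the study place the control RNA on the side opposite the lesion and its results speak of naive mice, so the control tissue is called non-stroked throughout.

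Chemokine receptors are G protein-coupled receptors that guide leukocytes along gradients of small secreted chemokines. Ccr2 directs inflammatory monocytes out of the bone marrow and into injured tissue, and Ccr1 is carried by monocytes and neutrophils. Ccr7 guides dendritic cells and naive T cells to lymph nodes. Cxcr3 and Cxcr6 are receptors of effector T cells and NK cells. Cxcr4, the receptor of Cxcl12, is the most widely used of the set: it retains leukocytes and their precursors in the bone marrow, and it is also made by microglia, vascular cells and neural precursors. In bulk tissue, fewer cells of a type and less RNA per cell cannot be told apart.

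In GENCODE M21 on GRCm38, 3 of the 6 genes lie in the chemokine receptor cluster of chromosome 9. These are Cxcr6 (ENSMUSG00000048521, chr9:123806475-123811760, plus strand), Ccr1 (ENSMUSG00000025804, chr9:123962124-123968692, minus strand) and Ccr2 (ENSMUSG00000049103, chr9:124101950-124113557, plus strand). Ccr7 (ENSMUSG00000037944) lies at chr11:99144196-99155077, Cxcr3 (ENSMUSG00000050232) at chrX:101731535-101734269 and Cxcr4 (ENSMUSG00000045382) at chr1:128588199-128592293, all on the minus strand. The models of Ccr1, Cxcr3, Cxcr4 and Cxcr6 have 2 exons and those of Ccr2 and Ccr7 have 3. The whole of Cxcr6 lies inside Fyco1 on the opposite strand, with 0 bases of shared exon. Whether the counting used strand is not given in the sources used here, and Fyco1 held 1445 to 3832 counts in every sample. The promoters of 5 of the 6 genes were found in the RefSeq table (GRCm38.p6, 250 bases before to 50 after the start). The promoters of Cxcr4, Ccr2 and Cxcr6 are shown 5′ to 3′ because Cxcr4 was called after stroke in WT, RAG and NSG mice, Ccr2 was called in all 3 wildtype comparisons, and Cxcr6 stayed at 0 to 3 counts in every RAG and NSG sample. Cxcr4 is at chr1:128592250-128592549 on the minus strand, Ccr2 at chr9:124101933-124102232 and Cxcr6 at chr9:123806227-123806526, both on the plus strand.
Cxcr4: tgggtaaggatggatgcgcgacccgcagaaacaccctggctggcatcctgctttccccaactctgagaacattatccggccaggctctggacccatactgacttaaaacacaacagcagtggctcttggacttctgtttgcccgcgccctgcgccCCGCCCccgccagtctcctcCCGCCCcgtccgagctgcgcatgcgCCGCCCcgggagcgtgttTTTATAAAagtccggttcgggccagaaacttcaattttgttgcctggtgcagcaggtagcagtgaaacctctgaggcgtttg
Ccr2: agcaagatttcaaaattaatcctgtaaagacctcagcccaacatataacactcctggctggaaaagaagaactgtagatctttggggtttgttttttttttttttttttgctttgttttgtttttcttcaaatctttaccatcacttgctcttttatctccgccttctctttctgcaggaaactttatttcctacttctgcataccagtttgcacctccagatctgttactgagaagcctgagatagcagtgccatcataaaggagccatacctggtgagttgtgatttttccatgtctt
Cxcr6: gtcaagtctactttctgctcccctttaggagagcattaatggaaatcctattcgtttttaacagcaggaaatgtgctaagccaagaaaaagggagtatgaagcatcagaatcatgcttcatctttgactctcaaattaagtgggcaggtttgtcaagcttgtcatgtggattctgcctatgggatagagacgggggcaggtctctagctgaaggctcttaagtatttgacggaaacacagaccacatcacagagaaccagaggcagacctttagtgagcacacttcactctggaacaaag
Capitals mark matches, on either strand, to TATAAA (the TATA box, in 13.6% of the 32851 promoters of the table), ACGTG (the core of the hypoxia response element, 19.6%), GGGCGG (the GC box, 35.7%) and GAGGAA (a core bound by the myeloid factor PU.1, 28.3%). The Cxcr4 promoter holds 3 matches to GGGCGG, read as CCGCCC on this strand, and 2 overlapping matches to TATAAA, on opposite strands. The Ccr2 and Cxcr6 promoters hold none of these motifs, and those of Ccr1 and Cxcr3 hold 1 match to GAGGAA each. The GENCODE model of Ccr2 starts at 124101950, near the beginning of its window. Most of the Ccr2 window thus lies inside that model, and bases before the GENCODE start were mostly not searched. A match describes the letters in this window only.

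Between 17789044 and 43403413 reads were counted per sample. Sample titles carry 1 of 2 prefixes, Imm2 or TF, which are treated here as library sets. All non-stroked, RAG and NSG samples are Imm2 (median 37223696 reads in the set), WT_IM_del_Stroke is TF only (median 21878621), and WT_Stroke (2 and 2) and WT_IM_Stroke (1 and 2) hold both. Beyond these 2 groups, library set and condition cannot be told apart. Summed choroid plexus markers ranged from 4.54 to 1584 CPM between samples and their part in the results was not tested. Levels are given as CPM, read counts scaled to a common sequencing depth with TMM factors. A gene was called when edgeR's quasi-likelihood test gave a Benjamini-Hochberg adjusted p below 0.05 over the 17031 genes tested and the log2 fold change was above 1 in size. All 6 receptors were tested, but Ccr7, Cxcr3 and Cxcr6 reached the filter's 0.287 CPM in 0 of 11 non-stroked samples and in 13, 5 and 5 of the 18 stroked ones. Ccr1 reached it in 2 non-stroked and 17 stroked samples, where 3 samples were needed. These 4 receptors were thus in the test only through stroked samples. For Cxcr3 and Cxcr6 these were TF samples of wildtype mice alone, most of them WT_IM_del_Stroke. Both were thus selected by groups in which they were high, which limits their calls and their comparison with RAG and NSG. Neither a count of called receptors nor their median fold change carries weight for the set as a whole.

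**Figure D1:**
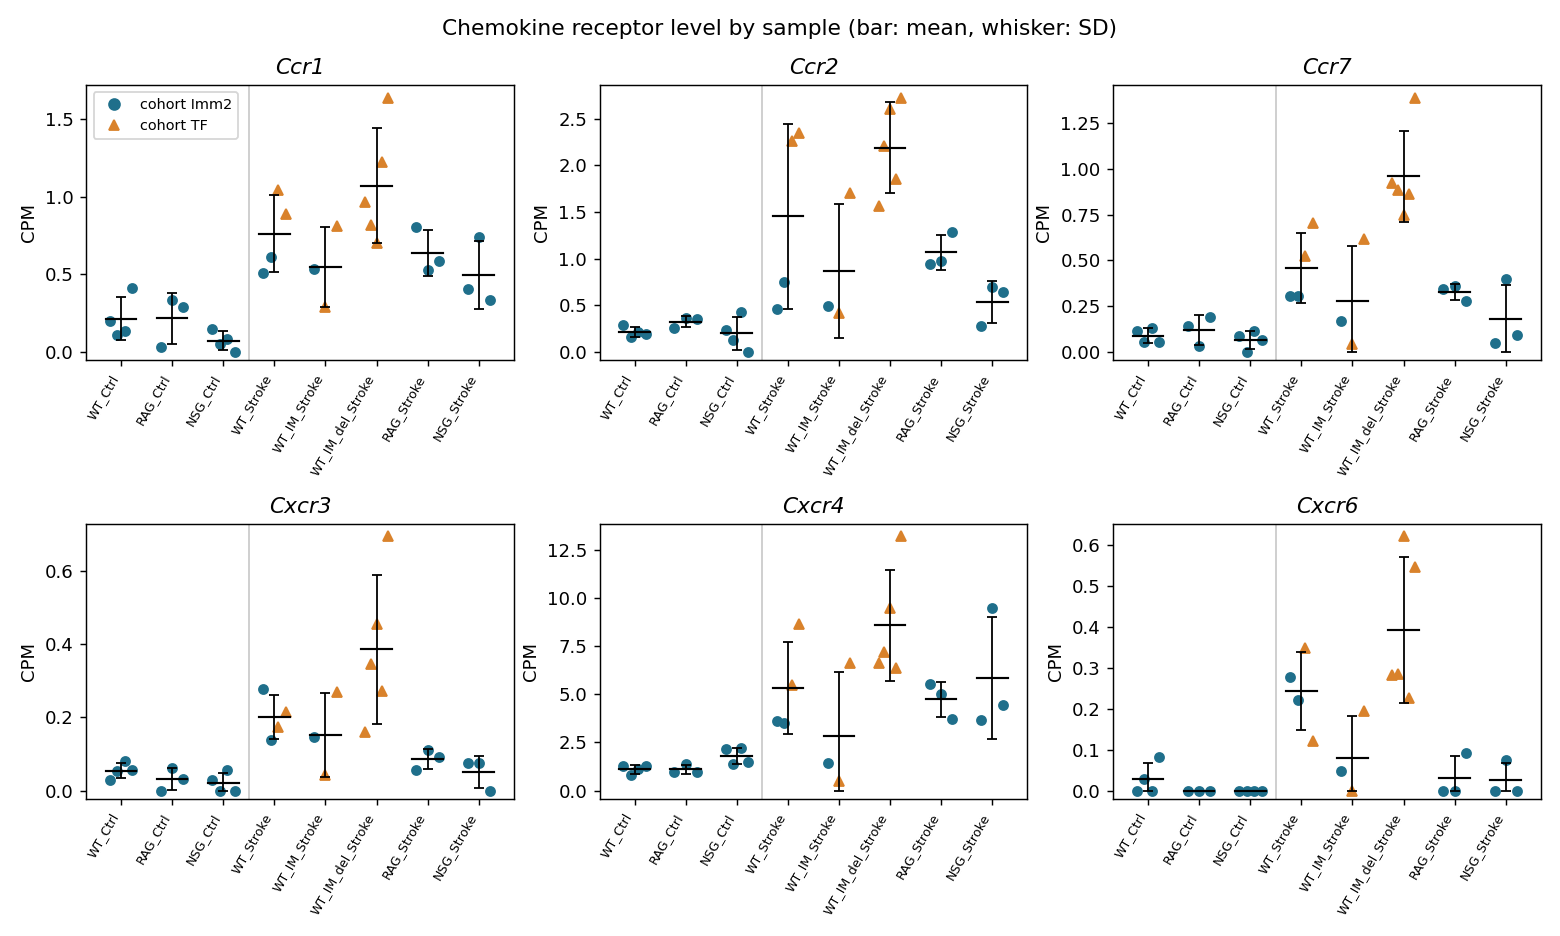
Level of each receptor in CPM (linear axis) in every sample of the 8 groups, with circles for the Imm2 and triangles for the TF library set. Horizontal bars are group means and whiskers the SD, drawn no lower than 0. Cxcr4 reached the highest level of the 6, and the 2 TF samples of WT_Stroke lie above its 2 Imm2 samples for Ccr1, Ccr2, Ccr7 and Cxcr4.

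The receptors differed widely in level. Per kilobase of exon, Cxcr4 stood first in all 8 groups, with 0.611 ± 0.123 CPM per kb (SD, n = 4) in WT_Ctrl and 2.94 ± 1.32 in WT_Stroke. The other 5 receptors lay between 0.0142 and 0.0753 CPM per kb on average in WT_Ctrl and between 0.116 and 0.269 in WT_Stroke. On this per-length scale Ccr1 (0.269 ± 0.0872), Ccr7 (0.232 ± 0.0973) and Ccr2 (0.215 ± 0.147) were neighbours in WT_Stroke and did not differ beyond their spread. Cxcr6 (0.126 ± 0.0493) and Cxcr3 (0.116 ± 0.0344) came last and did not differ beyond their spread either.

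In wildtype mice all 6 receptors were called higher after stroke, beside 6.76% of all genes tested. Their median log2 fold change was 2.28 and that of all genes 0.00. The 2 medians are not a fair comparison, since Ccr1, Ccr7, Cxcr3 and Cxcr6 passed the filter only through stroked samples. Ccr2 and Cxcr4 had the smallest adjusted p-values of the 6. In the same direction, 1 receptor was called in WT_IM (2.28% of all genes), 6 in WT_IM_del (11.5%), 1 in RAG (4.22%) and 2 in NSG (5.01%). The WT, WT_IM and WT_IM_del comparisons share the same 4 WT_Ctrl samples. DESeq2 called 6, 2, 6, 1 and 2 receptors in the same order of comparisons. The shares of all genes given here stand also beside each count of cell type markers called after stroke below. Markers with few non-stroked counts, such as Plac8, Klrk1 and Cd3e, were likewise tested only through stroked samples.

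**Figure D2:**
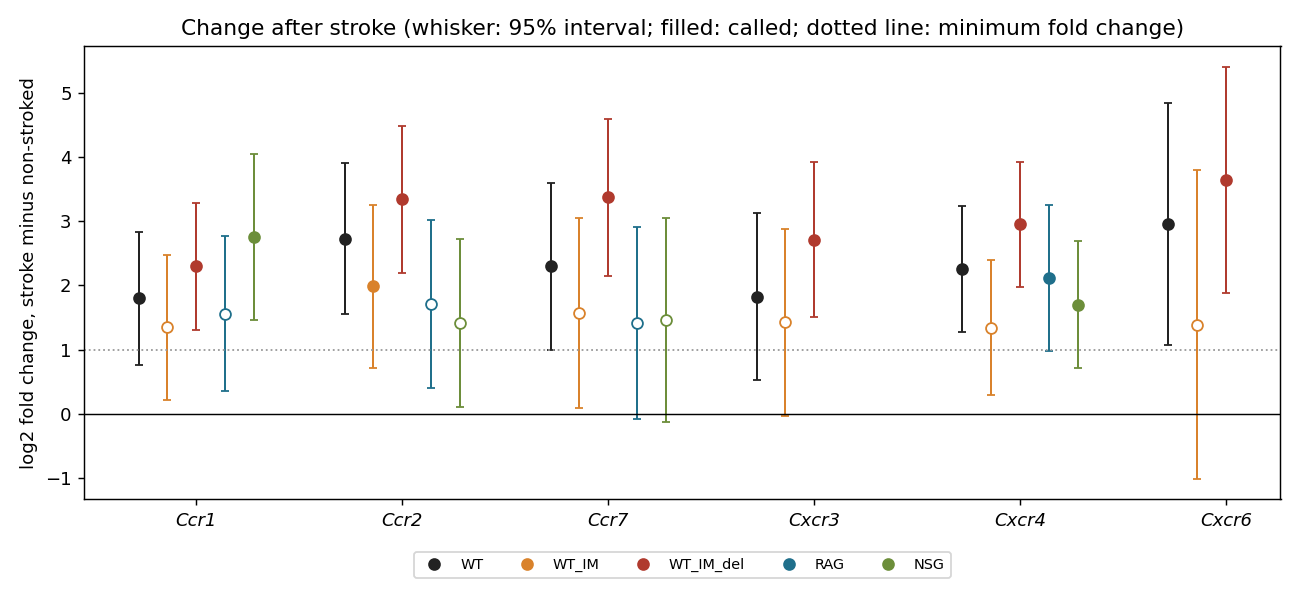
Change of each receptor after stroke (log2 fold change, stroked minus non-stroked of the same strain; whiskers are 95% intervals of the edgeR fit) in 5 comparisons. Filled points were called, the dotted line marks a log2 fold change of 1, and comparisons with at most 3 counts in the whole non-stroked group (Cxcr3 and Cxcr6 in RAG and NSG) are left out. Cxcr4 was called in 4 of the 5 comparisons, and the points of WT_IM lie at or below those of WT and WT_IM_del for every receptor.

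Ccr2, the receptor of inflammatory monocytes, was called higher after stroke in WT, WT_IM and WT_IM_del. Its level in WT_Ctrl was 0.285, 0.163, 0.212 and 0.192 CPM in the 4 samples, and in WT_Stroke 0.454 and 0.750 CPM in the 2 Imm2 samples and 2.26 and 2.35 CPM in the 2 TF samples. Every stroked sample lay above every non-stroked one, and the TF samples of WT_Stroke lay above its Imm2 samples. The log2 fold change was 2.73 (SE 0.571, edgeR adjusted p = 0.00124). Among Imm2 samples alone it was 1.49 and not called (adjusted p = 0.136), and with the library set as a covariate it was 1.65 and called (adjusted p = 0.046). In WT_IM_del_Stroke, all TF, Ccr2 lay at 1.57, 2.20, 2.61, 1.86 and 2.73 CPM, again above all WT_Ctrl samples, with a log2 fold change of 3.34 (SE 0.557, adjusted p = 2.99e-05). With the library set as a covariate this was 1.71 and not called (adjusted p = 0.0968).

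Under tacrolimus from the time of stroke, Ccr2 was 0.487, 0.416 and 1.70 CPM in the 3 WT_IM_Stroke samples. All 3 lay above WT_Ctrl, but the TF sample labelled 2_1_acute (replicate 3) stood far above the others. The log2 fold change of 1.99 (SE 0.618, adjusted p = 0.0459) was the only call among the receptors in this group. It fell to 1.07 (adjusted p = 0.486) without that sample and to 1.19 (adjusted p = 1) within the Imm2 set, which holds 1 WT_IM_Stroke sample. The call was lost in 9 of 14 alternatives, among them the library set as a covariate (0.84, adjusted p = 0.618), no filter on low counts, a fit of the 2 groups alone and each WT_Ctrl sample left out. In RAG_Ctrl Ccr2 was 0.255, 0.365 and 0.349 CPM and in RAG_Stroke 0.947, 0.970 and 1.29 CPM, so that these groups did not overlap. The log2 fold change of 1.72 (SE 0.636) did not pass the adjusted threshold (adjusted p = 0.0993), while a fit of the 2 RAG groups alone called it (adjusted p = 0.00422). NSG_Stroke reached 0.278, 0.692 and 0.643 CPM against 0.234, 0.127, 0.425 and 0 CPM in NSG_Ctrl, and these groups overlapped (log2 fold change 1.42, SE 0.636, adjusted p = 0.108). Of the 6 monocyte markers, which include Ly6c2 and Plac8, 4 were called higher in WT, 1 in WT_IM, 4 in WT_IM_del, 1 in RAG and 2 in NSG. The summed monocyte markers ranged from 24.0 to 27.2 CPM in WT_Ctrl and from 24.7 to 37.8 CPM in WT_Stroke, but Vcan alone held 93.0% to 99.5% of their counts in each group. Over each group, Ly6c2 went from 4 to 36 counts and Plac8 from 3 to 43 in WT. In RAG, Ly6c2 went from 3 to 2 and Plac8 from 1 to 17, and the called marker was Chil3. In NSG, Ly6c2 went from 84 to 118 and Plac8 from 3 to 36. Their part in the Ccr2 result was not tested.

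Ccr1, which monocytes and neutrophils use to follow Ccl3 and Ccl5, was called higher after stroke in WT, WT_IM_del and NSG. In the WT_Ctrl samples it was 0.199, 0.109, 0.133 and 0.412 CPM, and in WT_Stroke 0.505, 0.611, 1.04 and 0.886 CPM. The groups did not overlap, and the log2 fold change was 1.80 (SE 0.501, adjusted p = 0.0103). Within Imm2 it was 1.38 and not called (adjusted p = 0.196), and the call was also lost with the library set as a covariate. WT_IM_del_Stroke held 0.965, 0.819, 0.703, 1.22 and 1.64 CPM (log2 fold change 2.30, SE 0.483, adjusted p = 0.000345). With the covariate this was not called (adjusted p = 0.0958). In WT_IM_Stroke the levels of 0.535, 0.291 and 0.811 CPM overlapped those of WT_Ctrl (log2 fold change 1.35, SE 0.546, adjusted p = 0.111).

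Of the immunodeficient strains, Ccr1 was called in NSG. NSG_Ctrl held 0.146, 0.0508, 0.0850 and 0 CPM and NSG_Stroke 0.405, 0.741 and 0.337 CPM. The groups did not overlap, and the log2 fold change was 2.75 (SE 0.627, adjusted p = 0.0033), although a fit of the 2 NSG groups alone left it just outside the threshold (adjusted p = 0.0507). In RAG the stroked samples (0.803, 0.527 and 0.582 CPM) again lay above the non-stroked ones (0.0283, 0.334 and 0.286 CPM), with a log2 fold change of 1.56 (SE 0.588) that was not called (adjusted p = 0.105). The difference between the NSG and WT responses was 0.95 (95% interval -0.72 to 2.62), so that the larger value in NSG did not differ detectably from that in WT. Ccr1l1, a neighbouring gene similar to Ccr1, held 0 to 3 counts in every sample.

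Ccr7, the lymph node homing receptor of dendritic cells and naive T cells, was called higher after stroke in WT and WT_IM_del. WT_Ctrl samples held 2 to 5 counts each, which is 0.0544 to 0.133 CPM, and WT_Stroke samples 0.303, 0.306, 0.522 and 0.703 CPM. Its log2 fold change was 2.30 (SE 0.634, adjusted p = 0.00979), or 1.74 within Imm2 (adjusted p = 0.158). The call was also lost with the library set as a covariate. WT_IM_del_Stroke had the highest Ccr7 levels of all groups, at 0.925, 0.882, 0.745, 0.860 and 1.39 CPM, and each of its samples lay above every other sample of the series. Its log2 fold change against WT_Ctrl was 3.37 (SE 0.596, adjusted p = 5.73e-05), but with the covariate it was not called (adjusted p = 0.0699).

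In WT_IM, RAG and NSG Ccr7 was not called. WT_IM_Stroke held 0.170, 0.0416 and 0.618 CPM, where the lowest sample was below all WT_Ctrl samples and the highest above them. RAG_Stroke held 0.344, 0.360 and 0.276 CPM, above the 0.142, 0.0304 and 0.191 CPM of RAG_Ctrl (log2 fold change 1.41, SE 0.726, adjusted p = 0.261). In NSG_Stroke 1 sample at 0.395 CPM stood apart from the other two at 0.0506 and 0.0918 CPM (log2 fold change 1.46, SE 0.771, adjusted p = 0.176). Without that sample, replicate 2, the log2 fold change was 0.10 (adjusted p = 0.952). Of 5 dendritic cell markers tested, Itgax alone was called higher in WT, WT_IM, WT_IM_del and RAG, and Itgax and Cd209a in NSG. Itgax, which other myeloid cells also express, went from 30 counts over WT_Ctrl to 1940 over WT_Stroke. Clec9a, a dendritic cell marker, went from 3 to 16 and Cd209a from 26 to 33. The rest of the list went the other way, Flt3 from 1585 to 950, Zbtb46 from 1920 to 1455 and Fscn1 from 37628 to 28133. The summed list (272 to 293 CPM in WT_Ctrl and 210 to 302 CPM in WT_Stroke) is mostly Fscn1, with 81.1% to 92.6% of the counts in each group. The part of dendritic cells in the Ccr7 result was not tested.

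Cxcr3 and Cxcr6, the receptors of effector T cells and NK cells, had the fewest reads of the set in WT_Stroke. Cxcr3 held 1, 2, 3 and 2 counts in WT_Ctrl and 11, 5, 4 and 7 in WT_Stroke. The groups did not overlap, and the log2 fold change of 1.82 (SE 0.630, adjusted p = 0.0338) was the call in WT nearest the threshold: leaving out any 1 of 6 of the 8 samples compared ended it, with adjusted p from 0.0528 to 0.0943. The call was also lost with the library set as a covariate. WT_IM_del_Stroke held 4, 11, 11, 6 and 14 counts in shallower libraries (log2 fold change 2.71, SE 0.583, adjusted p = 0.000425). Cxcr3 was the one receptor still called in WT_IM_del with the library set as a covariate (2.73, adjusted p = 0.0428). It had entered the test only through TF samples, most of them of this group. WT_IM_Stroke held 6, 1 and 7 counts and was not called (log2 fold change 1.43, adjusted p = 0.19).

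In RAG, Cxcr3 summed to 3 counts over the 3 non-stroked and 9 counts over the 3 stroked samples. The ratio of summed levels was 2.89 with a 95% counting interval of 0.721 to 16.6. In NSG it summed to 3 and 6 counts, a ratio of 2.51 (0.535 to 15.5). Neither interval excludes 1, so that a change was not detectable at this depth. The intervals are exact and cover counting error only. Against WT_Stroke, all RAG_Stroke samples (2, 4 and 3 counts; 0.0574, 0.111 and 0.0919 CPM) and all NSG_Stroke samples (3, 3 and 0 counts; 0.0759, 0.0741 and 0 CPM) lay lower than the 0.139 to 0.278 CPM of WT_Stroke. The log2 differences were -1.19 in RAG (SE 0.647, adjusted p = 0.722) and -1.88 in NSG (SE 0.692, adjusted p = 0.0725), neither called.

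Cxcr6 was at 0 to 3 counts in every sample but those of the stroked wildtype groups. In WT_Ctrl it held 0, 1, 0 and 3 counts and in WT_Stroke 11, 8, 8 and 4. Its log2 fold change was 2.96 (SE 0.900, adjusted p = 0.0202). It lost its call without WT_Ctrl replicate 1 or 4 or WT_Stroke replicate 3 (adjusted p 0.0606, 0.0556 and 0.052), within Imm2 (3.04, adjusted p = 0.108) and with the library set as a covariate. WT_IM_del_Stroke held 7, 9, 15, 5 and 11 counts (log2 fold change 3.65, SE 0.844, adjusted p = 0.00119). With the covariate this was not called (adjusted p = 0.0744). WT_IM_Stroke held 2, 0 and 5 counts (log2 fold change 1.39, SE 1.15, adjusted p = 0.45).

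In RAG_Ctrl and NSG_Ctrl no read of Cxcr6 was counted, which allows up to 0.0301 and 0.0213 CPM over each group (3 counts). RAG_Stroke held 0, 0 and 3 counts and NSG_Stroke 0, 3 and 0, so that no change after stroke can be given in these strains. Every sample of both groups lay below every WT_Stroke sample. The summed level was 0.123 times that of WT_Stroke in RAG (3 against 31 counts, 95% counting interval 0.0240 to 0.393) and 0.113 times in NSG (0.0221 to 0.362). These intervals leave out the spread between mice. The edgeR test that includes it did not pass over all genes in either strain (adjusted p = 0.707 in RAG and 0.051 in NSG).

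**Figure D3:**
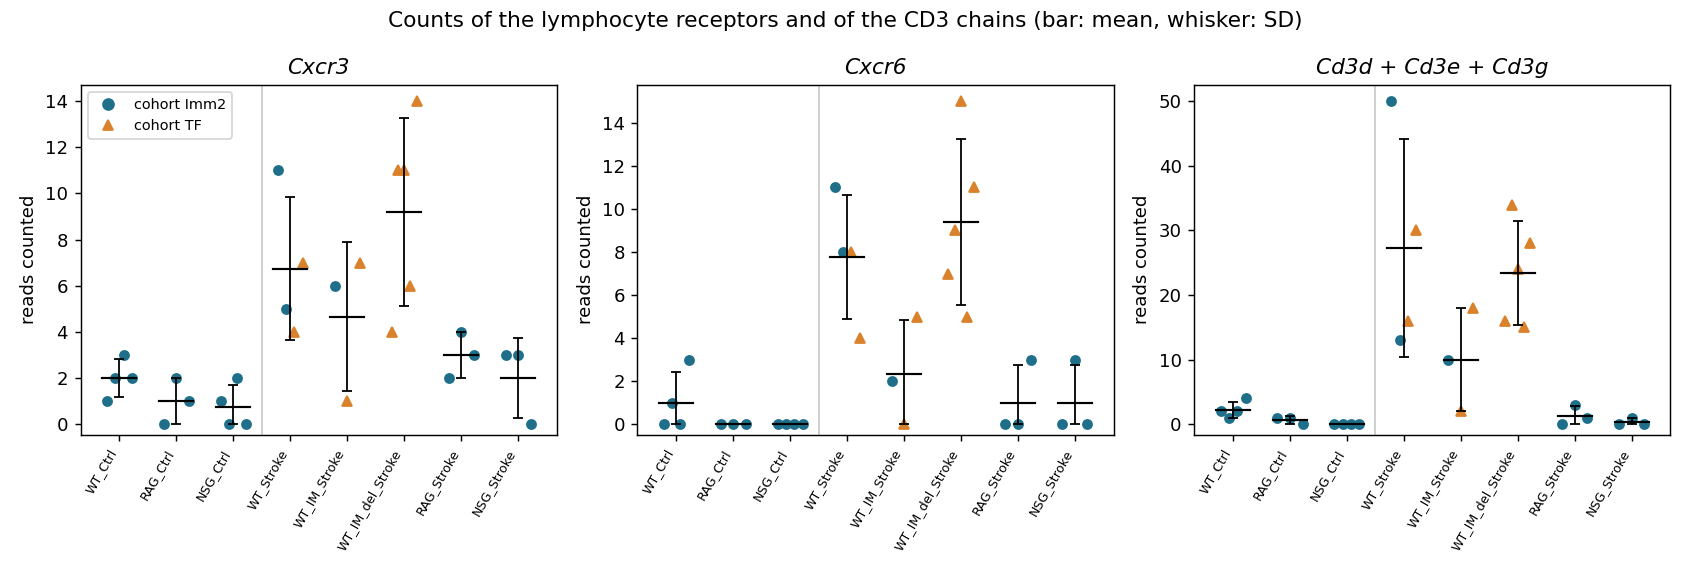
Reads counted per sample (linear axes, not scaled to depth) for Cxcr3, Cxcr6 and the sum of the 3 CD3 chains Cd3d, Cd3e and Cd3g in the 8 groups, with circles for Imm2 and triangles for TF. Bars are means and whiskers the SD, drawn no lower than 0. WT_Stroke and WT_IM_del_Stroke hold 13 to 50 CD3 reads in each sample, RAG_Stroke at most 3 and NSG_Stroke at most 1.

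The CD3 chains, which define T cells, had their highest group means in WT_Stroke and WT_IM_del_Stroke, as did both receptors. Within WT_Stroke, replicates 1 to 4 held 50, 13, 16 and 30 CD3 counts, which did not follow their 11, 8, 8 and 4 counts of Cxcr6. Together the chains held 1 to 4 counts per sample in WT_Ctrl, 13 to 50 in WT_Stroke, 2 to 18 in WT_IM_Stroke and 15 to 34 in WT_IM_del_Stroke. RAG_Stroke held 0 to 3 and NSG_Stroke 0 to 1, and NSG_Ctrl had none at all. Of 11 T cell markers tested, 5 were called higher in WT (Cd2, Trbc1, Cd8a, Cd3g and Cd3e), 7 in WT_IM_del and 0 in WT_IM, RAG and NSG by edgeR, where 2, 0 and 0 had an unadjusted p under 0.05. The sum over the whole list (18.9 to 30.9 CPM in WT_Stroke, 12.8 to 26.5 in RAG_Stroke and 8.15 to 35.2 in NSG_Stroke) does not follow the CD3 chains, since Cd4 or Trbc2 alone makes up 46.2% or more of the counts in every group. NK cell markers summed to 1.35 to 15.3 CPM in WT_Stroke, 0.797 to 1.69 in RAG_Stroke and 0.127 to 0.593 in NSG_Stroke, but to 0.155 to 8.99 in NSG_Ctrl, and Eomes alone held 50.8% to 98.5% of their counts in each group. Over each group, Klrb1c and Klrk1, receptors of NK cells, went from 3 and 4 counts in WT_Ctrl to 24 and 37 in WT_Stroke. In RAG they went from 1 and 0 to 27 and 15, and in NSG from 3 and 0 to 9 and 5. The rest of the list did not rise in NSG. There Eomes went from 392 to 34 counts, Gzma from 2 to 0 and Klre1 from 1 to 0, and Ncr1 stayed at 0. Of 3 NK cell markers tested, 3 were called higher in WT, 0 in WT_IM and 3 in WT_IM_del. In RAG 2 were called, Klrb1c and Klrk1, and in NSG 0, where 2 had an unadjusted p under 0.05 by edgeR. The part of either cell type in the Cxcr3 and Cxcr6 counts was not tested.

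Cxcr4, the receptor of Cxcl12, had the most reads and was called higher after stroke in WT, WT_IM_del, RAG and NSG. WT_Ctrl held 1.25, 0.789, 1.11 and 1.26 CPM, and WT_Stroke 3.64 and 3.53 CPM in Imm2 and 5.48 and 8.64 CPM in TF. All stroked samples were above all non-stroked ones. The log2 fold change was 2.26 (SE 0.476, adjusted p = 0.0013). Cxcr4 was the one receptor still called in WT within Imm2 (1.70, adjusted p = 0.00241), and it was called in all 15 alternatives run for this comparison.

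RAG_Ctrl held 0.963, 1.37 and 0.953 CPM of Cxcr4 and RAG_Stroke 5.51, 4.99 and 3.74 CPM. The groups stood far apart (log2 fold change 2.11, SE 0.552, adjusted p = 0.0173), yet the call was lost without RAG_Ctrl replicate 1 or 4 or RAG_Stroke replicate 1 (adjusted p 0.0807, 0.0745 and 0.0722), where the log2 fold change stayed between 1.99 and 2.02. In NSG_Ctrl the level was 2.14, 1.40, 2.18 and 1.48 CPM and in NSG_Stroke 3.64, 9.46 and 4.44 CPM (log2 fold change 1.70, SE 0.481, adjusted p = 0.0138). Without NSG_Stroke replicate 2, the highest sample, this was 1.16 and not called (adjusted p = 0.1). Non-stroked NSG samples all lay above the non-stroked WT and RAG samples, by a log2 difference of 0.70 from WT (SE 0.483, adjusted p = 0.427).

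WT_IM_del_Stroke had the highest mean level of Cxcr4, with 6.64, 7.21, 9.48, 6.34 and 13.2 CPM (log2 fold change 2.95, SE 0.470, adjusted p = 1.84e-05). With the library set as a covariate this was not called (adjusted p = 0.0581). WT_IM_Stroke spread most, with 1.41, 0.499 and 6.61 CPM. The sample labelled 1_5_acute (replicate 2) lay below all WT_Ctrl samples, and the sample labelled 2_1_acute within the range of WT_Stroke. The log2 fold change of 1.35 (SE 0.510, adjusted p = 0.0905) was -0.15 without 2_1_acute and 1.80 without 1_5_acute. The leukocyte markers moved alike: their sum was 58.4, 71.8 and 194 CPM as lowest, median and highest of WT_IM_Stroke, against 52.7 to 60.9 CPM in WT_Ctrl and 148 to 225 CPM in WT_Stroke. All 6 leukocyte markers were called higher in WT, WT_IM_del, RAG and NSG, and 4 in WT_IM. Summed neutrophil markers were 8.27 to 11.3 CPM in WT_Ctrl and 19.4 to 30.9 CPM in WT_Stroke, with Csf3r holding 74.8% to 86.6% of their counts in each group. The microglia markers summed to 142 to 165 CPM in WT_Ctrl and 239 to 341 CPM in WT_Stroke. Their part in the Cxcr4 change was not tested.

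Among stroked mice, the early and the delayed start of tacrolimus differed for 2 receptors. Ccr7 was higher in WT_IM_del_Stroke than in WT_IM_Stroke by 1.80 on the log2 scale (SE 0.585, adjusted p = 0.0321) without overlap, and Cxcr4 by 1.60 (SE 0.486, adjusted p = 0.024) with overlap, beside 5.75% of all genes called in either direction. DESeq2 called Ccr2 as well. Both calls depended on single samples: without 2_1_acute 5 receptors were called, all but Ccr1, and without either other WT_IM_Stroke sample or without WT_IM_del_Stroke replicate 5 none was. With the library set as a covariate neither was called, Ccr7 at 1.49 (adjusted p = 0.0933) and Cxcr4 at 1.33 (adjusted p = 0.0638).

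No receptor was called between stroked WT_IM and stroked WT, where 0% of all genes were called by edgeR. The log2 differences ran from -0.40 for Cxcr3 to -1.56 for Cxcr6 (95% interval -3.38 to 0.25), 0 of 6 had an unadjusted p under 0.05, and DESeq2 called 0. Without 2_1_acute Cxcr4 was called lower (-2.38, adjusted p = 0.00219). Between stroked WT_IM_del and stroked WT, 0 receptors and 0% of all genes were called. Ccr7 was the 1 receptor with an unadjusted p under 0.05 (log2 difference 1.07, 95% interval 0.06 to 2.08, adjusted p = 0.227), its groups did not overlap, and DESeq2 called 0.

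Stroked RAG and stroked WT differed for 0 of 6 receptors, beside 0.00587% of all genes. Only Cxcr6 had an unadjusted p under 0.05, and DESeq2 called 0. The differences of Ccr1 (-0.23, 95% interval -1.24 to 0.77), Ccr2 (-0.42, -1.52 to 0.68), Ccr7 (-0.46, -1.67 to 0.74) and Cxcr4 (-0.16, -1.13 to 0.81) were small against their intervals, and all 4 turned positive within Imm2, with Ccr2 at 0.84. Stroked NSG and stroked WT also differed for 0 receptors, beside 3.26% of all genes, while 4 of 6 had an unadjusted p under 0.05 and DESeq2 called 0. Those 4 were Ccr2 (log2 difference -1.41, SE 0.567, adjusted p = 0.1), Ccr7 (-1.29, SE 0.624, adjusted p = 0.172), Cxcr3 and Cxcr6, all lower in NSG. For Ccr2 the difference within Imm2 was -0.17 (adjusted p = 0.91). Without WT_Stroke replicate 1, Ccr2 was called, and without NSG_Stroke replicate 2, Ccr7 and Cxcr6 were.

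Before stroke the strains did not differ in a called receptor. By edgeR, 0 of 6 were called between NSG_Ctrl and WT_Ctrl (3.36% of all genes), between RAG_Ctrl and WT_Ctrl (0.00587%) and between NSG_Ctrl and RAG_Ctrl (2.8%). Ccr1 had an unadjusted p under 0.05 in both comparisons with NSG, lower there by 1.54 on the log2 scale each time (adjusted p = 0.149 against WT and 0.235 against RAG). DESeq2 called 0 in each. The stroke responses themselves were compared as a difference of differences. No receptor was called for RAG against WT (0% of all genes) or NSG against WT (0.0117%), and DESeq2 called 0. Cxcr6, with no count in RAG_Ctrl or NSG_Ctrl, gives no usable response in these strains. Of the other 5 receptors, 0 had an unadjusted p under 0.05 in either comparison, and their intervals were wide, as for Ccr2 in NSG against WT (-1.31, 95% interval -3.11 to 0.49). A receptor called after stroke in WT and not in RAG or NSG is therefore not shown to respond differently there.

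Most chemokines that these receptors bind were called higher after stroke in all 5 comparisons. Of 16 listed ligands 13 were tested. Called higher were 12 in WT (6.76% of all genes), 11 in WT_IM (2.28%) and 12 in WT_IM_del (11.5%). In RAG 10 were called (4.22%) and in NSG 11 (5.01%). Ccl4, Ccl5, Ccl7, Ccl8, Ccl12 and Cxcl9 stayed below the filter's 0.287 CPM in every non-stroked sample. Ccl2, Ccl3 and Cxcl10 reached it in fewer non-stroked samples than the 3 needed. All of these ligands were thus tested only through stroked samples, which also limits their adjusted p-values below. Neither these counts nor the medians below therefore carry weight for a list as a whole. Alternatives were run for the receptors only, so the ligand calls were not checked against the library set. Over the ligands with more than 3 counts in the non-stroked group, the median log2 fold change was 3.42 in WT (10 ligands), 2.54 in WT_IM (10), 4.06 in WT_IM_del (10), 2.86 in RAG (9) and 3.30 in NSG (12), against -0.00 to 0.03 over all genes. The receptors themselves, by the same rule, had medians of 2.28, 1.41, 3.15, 1.64 (4 receptors) and 1.58 (4 receptors). The list was chosen with earlier results of these data known.

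Ccl3, a ligand of Ccr1, rose in every comparison. In WT it went from 0.184 ± 0.154 CPM (SD, n = 4) to 2.04 ± 0.443 CPM (n = 4), a log2 fold change of 3.44 (SE 0.489, adjusted p = 3.92e-05), and in RAG and NSG by 3.56 and 3.35 (adjusted p = 0.000422 and 0.000133). Ccl6 and Ccl9, further Ccr1 ligands of the mouse, rose in WT by 3.40 and 2.11 (adjusted p = 3.45e-05 and 0.000175). Ccl2, the main ligand of Ccr2, rose from 0.0345 ± 0.0345 to 0.732 ± 0.592 CPM in WT (log2 fold change 4.25, SE 1.01, adjusted p = 0.00361) and from 0.157 ± 0.124 to 2.35 ± 2.03 CPM in NSG (3.88, SE 0.806, adjusted p = 0.00161). In RAG it went from 2 counts over 3 samples to 44 and was not called (adjusted p = 0.0578).

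**Figure D4:**
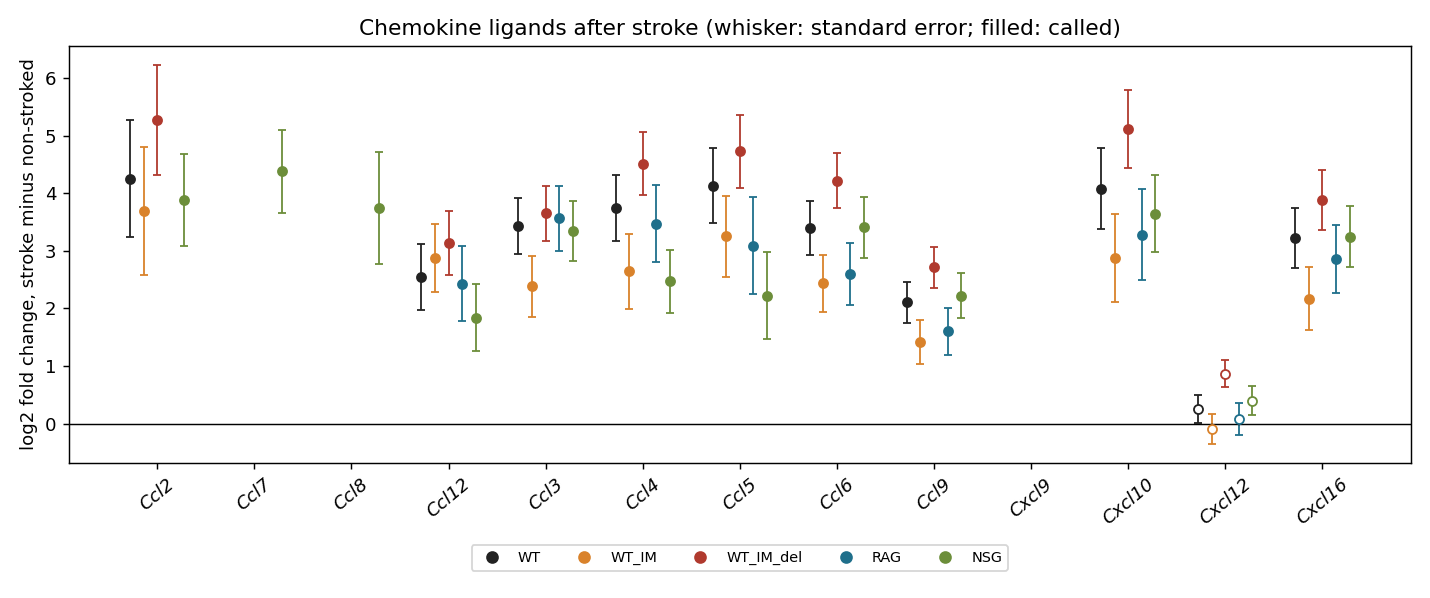
Change of the 13 tested ligands after stroke (log2 fold change, stroked minus non-stroked; whiskers are the standard error) in the 5 comparisons. Filled points were called, and ligands with at most 3 counts in the whole non-stroked group are left out of that comparison. Cxcl12 lies between -0.09 and 0.40 in 4 comparisons and at 0.87 in WT_IM_del, under the minimum change of 1 in all 5.

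Cxcl16 and Cxcl10, ligands of the lymphocyte receptors, were called higher also in RAG and NSG. Cxcl16, the single known ligand of Cxcr6, went from 1.23 ± 0.335 to 8.92 ± 2.45 CPM in RAG (n = 3 and 3; log2 fold change 2.86, SE 0.592, adjusted p = 0.00334) and from 1.54 ± 0.486 to 14.7 ± 9.19 CPM in NSG (n = 4 and 3; 3.25, SE 0.523, adjusted p = 0.000178). In WT it went from 1.01 ± 0.385 to 9.56 ± 1.54 CPM (3.23, SE 0.521, adjusted p = 0.00011). Cxcl10, a ligand of Cxcr3, rose by 4.08 in WT, 3.29 in RAG and 3.65 in NSG (adjusted p = 0.000179, 0.0093 and 0.000648). Cxcl9, the second interferon-induced ligand of Cxcr3, went from 3 to 160 counts over 4 WT samples each, from 3 to 30 over 3 RAG samples each and from 2 counts over 4 to 7 over 3 NSG samples. It was called in WT and WT_IM_del and lower in stroked NSG than in stroked WT. Cxcl12 was not called in any comparison. It was 51.4 ± 8.67 CPM in WT_Ctrl and 61.3 ± 17.0 CPM in WT_Stroke (log2 fold change 0.25, SE 0.242, adjusted p = 0.457). In WT_IM_del_Stroke it was 93.7 ± 31.8 CPM (n = 5), a log2 fold change of 0.87 (SE 0.233, adjusted p = 0.00304) that passed the test but not the minimum change. Of the Ccr7 ligands, Ccl21a was listed at 0 counts in all samples and Ccl19 was too low to be tested. How reads were assigned to these genes is not given, so 0 counts do not show that Ccl21a RNA was absent.

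Ccl5, a ligand of Ccr1 that is made by T cells and NK cells among others, was called in all 5 comparisons. It rose from 0.0748 ± 0.0395 to 1.37 ± 0.703 CPM in WT (log2 fold change 4.14, adjusted p = 9.06e-05), and reached 0.542 ± 0.194 CPM in RAG_Stroke and 0.341 ± 0.133 CPM in NSG_Stroke. Ccl5 and Cxcl9 were the 2 ligands called between stroked NSG and stroked WT, both lower in NSG.

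Of 18 other chemokine receptors listed, 11 were tested. In WT 1 was called higher (Cxcr2), beside 6.76% of all genes, and in WT_IM 0 (2.28%), where 5 had an unadjusted p under 0.05. In WT_IM_del 4 were called (Cxcr2, Ccrl2, Cx3cr1 and Ccr6), beside 11.5% of all genes. In RAG 0 were called (4.22%), where 3 had an unadjusted p under 0.05, and in NSG 2 (Ccrl2 and Ccr9), beside 5.01%. Cx3cr1, the fractalkine receptor of microglia, was at 40.3 ± 3.81 CPM in WT_Ctrl and 67.0 ± 8.91 CPM in WT_Stroke (log2 fold change 0.73, adjusted p = 0.00118, under the minimum change). Cxcr2, the neutrophil receptor, went from 3 to 35 counts over 4 WT samples each and was tested only through stroked samples. Ccr6 also differed between strains: it was 2.24 CPM on average in NSG_Ctrl against 0.0353 CPM in WT_Ctrl, and was called higher in NSG before stroke.

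Of 12 genes that act downstream of chemokine receptors, 5 were called higher in WT (6.76% of all genes), 3 in WT_IM (2.28%) and 6 in WT_IM_del (11.5%). In RAG 5 were called (4.22%) and in NSG 4 (5.01%), and none was lower. Their median log2 fold changes in this order were 0.71, 0.59, 1.12, 0.64 and 0.61, against -0.00 to 0.03 over all genes. Rgs1, which dampens Cxcr4 signalling in leukocytes, had a log2 fold change of 3.82 in WT (SE 0.737, adjusted p = 0.000591) and 4.72 in NSG (SE 0.711, adjusted p = 0.000102). With 14 counts over WT_Ctrl, 4 over RAG_Ctrl and 19 over NSG_Ctrl, Rgs1 was tested only through stroked samples. Rac2 and Dock2, which drive leukocyte migration, rose in WT by 1.91 and 1.54 (adjusted p = 5.81e-05 and 4.52e-05), and in RAG by 1.61 and 1.32 (adjusted p = 0.00283 and 0.00205). Gnai2, Arrb2 and Grk6, which most cells express, lay between 0.00 and 0.33 in WT and were not called.

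Across the 18 stroked samples the receptors fell into patterns that can be described by rank correlation (Spearman, log2 CPM). The samples share libraries, depth and group, so that no p is given. Cxcr4 was most like Cd300lf (0.98), Il10rb (0.98) and Col18a1 (0.97). Its rank correlation was 0.96 with the summed neutrophil markers, 0.94 with the leukocyte, 0.88 with the microglia and 0.82 with the monocyte markers. It was lower with the other lists, down to -0.64 with the dendritic cell markers. In every group Csf3r held at least 74.8% of the neutrophil, Vcan 93.0% of the monocyte and Fscn1 81.1% of the dendritic cell marker counts. The correlations with these lists thus mainly follow single genes and do not describe cell types. Genes most like Ccr2 included Flvcr1 (0.95) and Cd36 (0.95), and Ccr1 was most like Jpt2 (0.92), Top2a (0.91) and Sdc4 (0.91). Ccr7 was most like AB124611 (0.95), Mefv (0.95) and Ctla2b (0.94). Cxcr3 and Cxcr6 shared their first gene, Ms4a4b (0.91 and 0.89), followed by Rec8 (0.90) and Cd3g (0.89) for Cxcr3 and by Lat (0.88) and H2-M3 (0.88) for Cxcr6. The correlation of Cxcr3 with Cxcr6 was 0.86 and of each with Cxcr4 0.52 and 0.53. Over all genes the median correlation with a receptor was between 0.00 and 0.02.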

How the data were processed

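Brain RNA of 29 samples was analysed. The authors deposited 1 table of raw read counts per gene and sample, made by a core facility from a stranded poly(A) library. The aligner, the genome build and the use of strand in counting are not given in the sources used here. The 6 receptors and all gene lists were chosen with earlier results of these data known. Of 25746 genes, 22092 had a count and 17031 passed edgeR's filterByExpr. Gene symbols (25635 identifiers matched, 111 not) and exon lengths are from GENCODE M21 (GRCm38), promoters from RefSeq. Groups followed the genotype and treatment labels. 1 fit of all 8 groups (edgeR 4.0.16, R 4.3.3, TMM) gave 15 contrasts, tested by the quasi-likelihood test with Benjamini-Hochberg adjustment over all genes. The fit was tested on simulated data. The standard error is the fold change divided by the root of F, and intervals use the fit's degrees of freedom. CPM values in correlations were log2 with a prior count of 2. The text names every receptor, genes of the ligand, receptor and signalling lists, overlapping or similar genes, and the 3 genes most like each receptor. Some genes that this rule would name are not reported here. Alternatives were RLE scaling, no filter, DESeq2 1.42.0, fits of the compared groups, the library set (Imm2 or TF) as a covariate or Imm2 alone, no minimum fold change, a replicate block, and leaving out each sample. With 3 to 5 samples per group, counts from 17789044 to 43403413 reads set the precision, and nothing in the labels says more about how samples were bred or pooled, so p-values measure the spread between these samples. No replicate pair was identical (0 of all pairs).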

Additional observations from a re-analysis of the deposited data

Results flagged for a closer look

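The Ccr7 level of WT_IM_del_Stroke replicate 5, 1.39 CPM, stood apart from the other 4 samples of its group, which lay between 0.745 and 0.925 CPM, by Dixon's test at the 95% level. It was 1 of 23 receptor and group combinations tested, and chance alone flags about 1 in 20. Without this sample Ccr7 lost its call between stroked WT_IM_del and WT_IM (log2 difference 1.64, adjusted p = 0.0789). No stroke response of a receptor differed between strains by the test of the difference.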

How the results depend on the processing

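Counts of called receptors moved with the library set. After stroke in WT the count was 6 (4 to 6 with 1 sample left out) and became 1 within Imm2 and 2 with the set as a covariate. In WT_IM_del it was 6 and became 1 with the covariate. In WT_IM it was 1 and became 2 by DESeq2 and 0 within Imm2, with the covariate, with no filter and when the 2 groups were fitted alone. In RAG it was 1 and became 2 with the covariate and when fitted alone, and in NSG it was 2 and became 1 when fitted alone. Between stroked WT_IM_del and WT_IM it was 2 and became 0 with the covariate and when fitted alone. Leaving out 1 sample gave 0 to 1 called receptors in RAG, 1 to 3 in NSG, 0 to 2 in WT_IM, 0 to 5 between stroked WT_IM_del and WT_IM, 0 to 2 between stroked NSG and WT and 0 to 1 between stroked WT_IM and WT. The causes of these shifts were not tested.

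Of 745 receptor fold changes recomputed, 671 kept direction and side of the threshold, 47 lost and 14 gained a call, and 13 reversed. Values that were uncalled and stayed so count as kept. Left out were the non-stroked comparisons, the differences of differences and Cxcr3 after stroke in RAG and NSG. Cxcr6 was also left out after stroke in RAG and NSG and in their stroked samples against WT. In stroked RAG against WT the reversed values within Imm2 were 0.21 (Ccr1), 0.84 (Ccr2), 0.12 (Ccr7) and 0.42 (Cxcr4), with the covariate 0.044, 0.65, 0.10 and 0.47. With 1 sample left out, Cxcr4 ran there from -0.32 to 0.18, the latter without WT_Stroke replicate 4. In stroked NSG against WT it ran from -0.39 to 0.48, with -0.39, -0.01 and -0.01 without NSG_Stroke replicate 2 and WT_Stroke replicates 1 and 2. After stroke in WT_IM it ran from -0.15 without replicate 3 to 1.80.

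Non-stroked groups share replicate numbers. Deviations of same-numbered samples correlated between -0.27 and 0.13, so the numbers do not pair the samples. With a replicate block 0 receptors were called in each of the 3 non-stroked comparisons, as in the same samples without it, an alternative chosen after seeing the data. Cxcr3 and Cxcr6, at 0 to 15 counts per sample, are limited by counting error.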
